A study of Mus musculus with 6 samples.

Results

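Levels of 7 genes of the S100 family, S100a1, S100a4, S100a6, S100a10, S100a11, S100a13 and S100a16, were measured in polyadenylated RNA of mouse liver. They were taken by name from the gene column of the deposited count table, which holds 30029 genes, and all 7 had a row and passed the filter on low counts. The series compares 3 liver libraries labelled as Atp7b knockout on a high-fat diet for 24 weeks (labelled KO, KO_HFD in the plots) with 3 labelled as wild type on the same diet for the same time (labelled WT, WT_HFD in the plots). Both groups therefore share the diet. Atp7b is the copper-exporting ATPase of hepatocytes whose loss causes Wilson disease. The labels give no allele, strain, sex or age, and do not say that each library came from its own animal. The p-values therefore reflect the spread among these libraries alone, which could be technical.

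S100 proteins are small calcium-binding proteins with a pair of EF-hand motifs that act mostly as dimers. On binding calcium they expose a surface that docks partner proteins: annexins at membranes, myosin and capping protein in the cytoskeleton, and receptors such as RAGE when released from the cell. Most of their genes lie in a cluster, on chromosome 3 in the mouse. In liver they are best known from bile duct cells, macrophages, fibroblasts and tumours, while S100a8 and S100a9, which form calprotectin, belong to neutrophils and are not among the 7.

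Total counts per library were 68117601 to 70965999 in the group labelled KO and 57886524 to 67280139 in the group labelled WT, and the 7 genes together held 12076 to 20652 of those counts in the group labelled KO and 7029 to 10470 in the group labelled WT. Levels are given as CPM, read counts brought to a common library size with edgeR's TMM factors, in which 3 counts, the smallest level taken as detectable, came to 0.0339 to 0.0578 CPM. Calls were made where edgeR's quasi-likelihood test over 17606 genes gave an adjusted p under 0.05. Atp7b itself was not lower in the libraries labelled KO (25.9, 27.0 and 23.6 CPM) than in those labelled WT (17.5, 22.4 and 33.9 CPM), so its gene total did not check the labels and every direction here compares libraries by label only. On a principal component analysis the leading component held 45.7% of the variance, with labelled KO replicate 3 the farthest from the labelled WT libraries and labelled KO replicate 2 the nearest to them. Labelled WT replicate 1 stood apart on the next component (17.5%). The tissue label was checked on hepatocyte markers: the summed level of 10 was 56580 to 71820 CPM in the libraries labelled KO and 53670 to 63270 CPM in those labelled WT. Most of that sum came from Alb (60.1%). Of 3 genes of other tissues, kidney Umod had 0 counts in every library and heart Myh6 at most 4. Lung Sftpc had 39, 29 and 275 counts in the libraries labelled KO against 0, 33 and 4 in those labelled WT, highest in labelled KO replicate 3. In that library S100a4, S100a6, S100a10, S100a11 and S100a16 were also highest, while S100a1 and S100a13 were not. The part of Sftpc in the S100 values was not tested.

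The stretches before the start sites are shown first for the 3 genes whose groups did not overlap, S100a11, S100a4 and S100a6, and for the shared stretch between S100a1 and S100a13, which did not differ past the test. They are RefSeq promoter sequences of build GRCm38.p6, matched by symbol for 6 of the 7 genes, read 5′ to 3′ on the plus strand, each ending at the base before the annotated start. Capitals mark matches, on either strand, to any of 3 motifs: TGANTCA, the site bound by AP-1 factors, TATAAA, the TATA box, and CCAAT, the CCAAT box.
S100a11 (chr3:93520246-93520495): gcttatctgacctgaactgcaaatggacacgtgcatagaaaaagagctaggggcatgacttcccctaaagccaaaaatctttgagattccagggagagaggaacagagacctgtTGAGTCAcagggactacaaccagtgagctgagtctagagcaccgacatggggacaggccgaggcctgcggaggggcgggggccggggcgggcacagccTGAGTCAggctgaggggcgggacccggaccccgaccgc
S100a4 (chr3:90603520-90603769): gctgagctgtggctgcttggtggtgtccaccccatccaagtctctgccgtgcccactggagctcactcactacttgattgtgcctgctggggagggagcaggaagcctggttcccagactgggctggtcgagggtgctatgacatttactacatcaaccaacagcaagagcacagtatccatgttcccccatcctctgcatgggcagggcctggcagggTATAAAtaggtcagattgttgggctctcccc
S100a6 (chr3:90612644-90612893): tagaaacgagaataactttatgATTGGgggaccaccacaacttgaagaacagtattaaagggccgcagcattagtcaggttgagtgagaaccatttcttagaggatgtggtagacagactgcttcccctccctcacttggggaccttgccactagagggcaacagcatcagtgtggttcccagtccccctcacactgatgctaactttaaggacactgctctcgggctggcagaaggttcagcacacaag
S100a1 and S100a13 (chr3:90514331-90514434): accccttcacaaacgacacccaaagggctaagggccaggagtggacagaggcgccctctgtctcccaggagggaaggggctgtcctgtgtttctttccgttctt

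The S100a11 stretch held 2 matches to TGANTCA, at bases 136 to 130 and 38 to 32 before the start, a motif found in 6.75% of the 32851 promoter windows of the table when the same 250 bases were searched. S100a4 held TATAAA at bases 31 to 26, found in 12.4% of windows. S100a6 held CCAAT on the minus strand (printed as its reverse complement ATTGG) at bases 228 to 224, found in 33.8% of windows. None of these matches overlapped another. The S100a11 stretch had a GC content of 60.0%, S100a4 57.2% and S100a6 50.0%, against a median of 52.4% over all windows. S100a1 and S100a13 are transcribed away from each other, and 104 bases lie between their RefSeq start sites. That stretch held none of the 3 motifs, which occur in 2.87%, 5.69% and 19.4% of windows of the same length. A match describes letters only, and no factor was measured at any of these places. S100a1 and S100a13 were read only over the 104 bases between them, and S100a16 and S100a10, which had no entry, not at all. The matches therefore do not compare genes that differed with genes that did not.

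Of the 7 genes, S100a11 rose past the test in the livers labelled KO and the other 6 were not called. S100a4 and S100a6 were higher in every library labelled KO than in any labelled WT but did not pass, and S100a10, S100a1, S100a13 and S100a16 had overlapping groups. The count of 1 higher among 7 stands beside 164 of all 17606 tested genes called higher, 0.932%, and 89 called lower, 0.506% (253 in all, 1.44%). At an unadjusted p under 0.05, 3 of the 7 were higher, against 12% of all tested genes. Groups in which every labelled KO library lay above every labelled WT library occurred in 3 of the 7 genes and in 13.7% of all tested genes, and the reverse in 0 of the 7 and in 12% of all. The median log2 fold change, labelled KO over labelled WT, was 0.35 over the 7 and -0.02 over all tested genes.

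**Figure D1:**
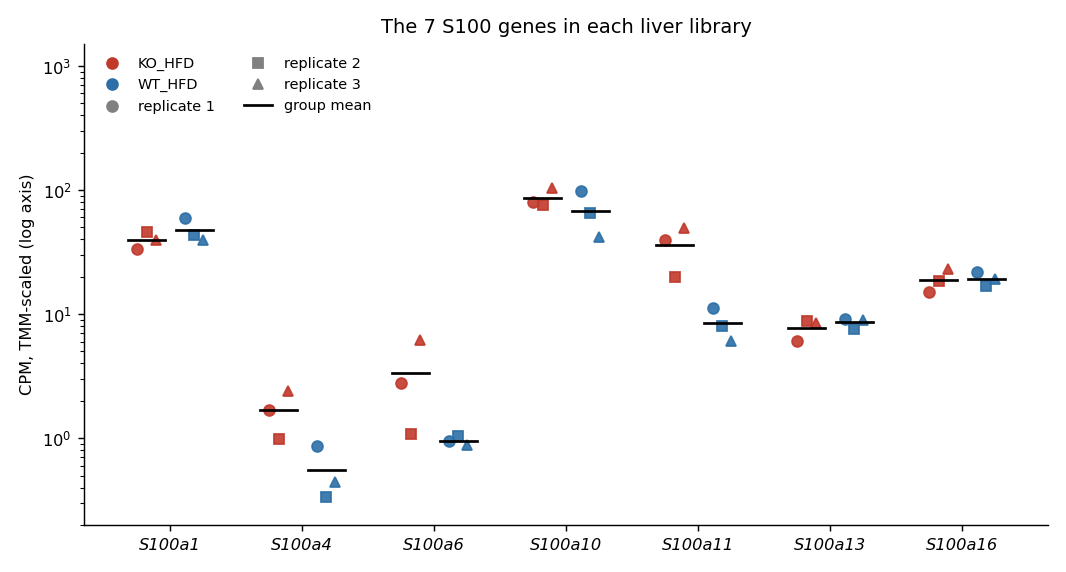
Level of each of the 7 S100 genes in every library, in TMM-scaled CPM on a log axis, with group means as bars and replicates by marker shape (KO_HFD in red to the left, WT_HFD in blue to the right). The red points of S100a11 lie between 19.8 and 49.0 CPM, above all blue points, and in S100a6 the square of KO_HFD replicate 2 stands next to the WT_HFD points.

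S100a11 (ENSMUSG00000027907; GRCm39 chromosome 3, 93427795 to 93433594, plus strand) binds annexin A1 and is found in many epithelia and in macrophages. Its level was 39.5, 19.8 and 49.0 CPM in labelled KO replicates 1, 2 and 3, against 11.2, 8.07 and 6.08 CPM in labelled WT replicates 1, 2 and 3. All 3 labelled KO libraries were above all labelled WT libraries, and labelled KO replicate 2 was the lowest of its group. The mean of 36.1 ± 14.9 CPM in livers labelled KO, against 8.45 ± 2.58 CPM in livers labelled WT (SD, n = 3 each), was a 4.28-fold difference, with a log2 fold change of 2.10 ± 0.37 (SE), a 95% interval of 1.23 to 2.97 and an adjusted p of 0.0498 in edgeR's test. That p lies at the edge of the threshold. S100a11 kept its call without labelled KO replicate 2 (adjusted p = 0.0129) and lost it without labelled KO replicate 1 or 3 or labelled WT replicate 1, 2 or 3 (adjusted p = 0.149, 0.0758, 0.0554, 0.196 and 0.153), while the log2 fold change stayed between 1.81 and 2.42.

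S100a6 (ENSMUSG00000001025; chromosome 3, 90520189 to 90531488, plus strand), calcyclin, binds annexin A11 and the CacyBP protein and is rich in bile duct epithelium and fibroblasts. It had 2.81, 1.08 and 6.22 CPM in the libraries labelled KO, against 0.944, 1.03 and 0.876 CPM in those labelled WT. Replicate 3 of the group labelled KO was the highest, and replicate 2 lay close above the highest labelled WT library. The log2 fold change was 1.83 ± 0.58 (SE), with a 95% interval of 0.49 to 3.16, and did not pass (adjusted p = 0.135). It was 1.03 without labelled KO replicate 3, and 2.28 with an adjusted p of 0.0277 without labelled KO replicate 2, where 3.97% of all tested genes were called higher.

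S100a4 (ENSMUSG00000001020; chromosome 3, 90511078 to 90513352, plus strand), also named fibroblast-specific protein, binds nonmuscle myosin and is carried by fibroblasts and macrophages. It was the least abundant of the 7, with 130, 70 and 211 counts in the libraries labelled KO against 45, 18 and 27 in those labelled WT. These came to 1.70, 0.992 and 2.38 CPM in the group labelled KO and 0.867, 0.338 and 0.446 CPM in the group labelled WT. The groups did not overlap, though labelled KO replicate 2 and labelled WT replicate 1 lay close together. The log2 fold change of 1.62 ± 0.51 (SE), with a 95% interval of 0.46 to 2.79, did not pass (adjusted p = 0.13). It ran from 1.29 without labelled KO replicate 3 to 2.10 without labelled WT replicate 1. DESeq2, a second tool on the same counts, called S100a4 and S100a6 besides S100a11 (adjusted p = 0.0343, 0.0191 and 2.87e-07). It called 7.46% of all tested genes higher. With total counts in place of TMM, S100a11 alone of the 7 was called (5.34% of all tested genes higher).

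S100a10 (ENSMUSG00000041959; chromosome 3, 93462387 to 93471950, plus strand) is the light chain of a complex with annexin A2 and, on the cell surface, binds plasminogen. It was the most abundant of the 7, with 79.7, 76.3 and 104 CPM in the libraries labelled KO against 98.0, 65.3 and 41.5 CPM in those labelled WT. The groups overlapped, since labelled WT replicate 1 exceeded labelled KO replicates 1 and 2. The log2 fold change of 0.35 had a 95% interval of -0.33 to 1.03 (adjusted p = 0.58), which includes both no difference and a doubling. It was 0.70 without labelled WT replicate 1 and 0.09 without labelled WT replicate 3.

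S100a1, S100a13 and S100a16 differed little between the groups. S100a1 (ENSMUSG00000044080; chromosome 3, 90418341 to 90421699, minus strand), which regulates calcium pumps and channels in muscle, had 33.4, 45.8 and 39.7 CPM in the libraries labelled KO against 59.7, 43.3 and 39.2 CPM in those labelled WT. Its log2 fold change was -0.26, with a 95% interval of -0.69 to 0.17 (adjusted p = 0.502). S100a13 (ENSMUSG00000042312; chromosome 3, 90421742 to 90431888, plus strand), needed for the unconventional release of FGF1 and interleukin 1 alpha, had 6.06, 8.76 and 8.55 CPM in the libraries labelled KO against 9.09, 7.62 and 9.01 CPM in those labelled WT. Its log2 fold change was -0.14, with a 95% interval of -0.59 to 0.32 (adjusted p = 0.77). S100a16 (ENSMUSG00000074457; chromosome 3, 90444561 to 90450458, plus strand), a widely expressed member, had 15.1, 18.5 and 22.9 CPM in the libraries labelled KO against 21.9, 16.9 and 19.0 CPM in those labelled WT. Its log2 fold change was -0.03, with a 95% interval of -0.45 to 0.38 (adjusted p = 0.952). None of these 3 intervals reached a doubling in either direction. With total counts in place of TMM the 3 values were 0.06, 0.19 and 0.31, while the median of all genes moved from -0.02 to 0.31, and less that median they were -0.25, -0.12 and 0.

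**Figure D2:**
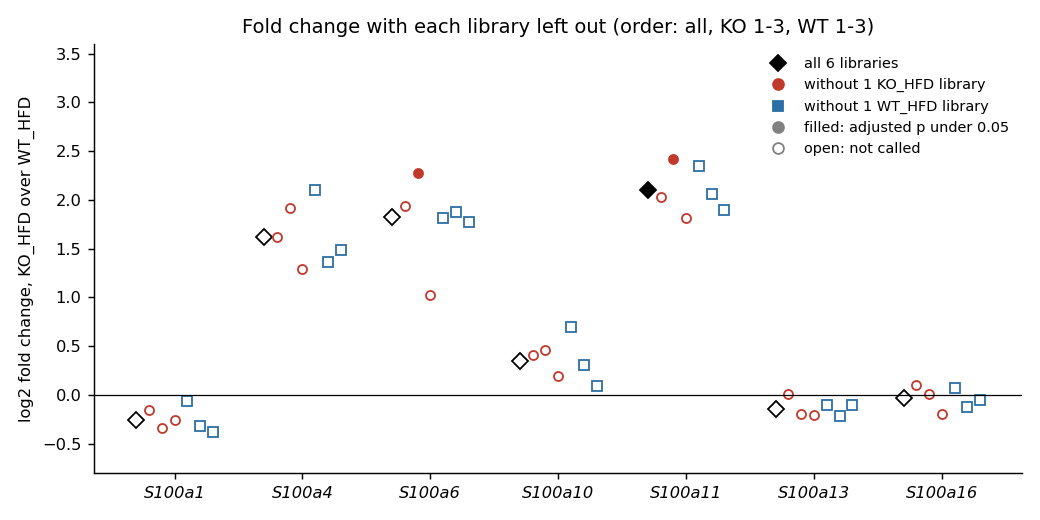
Log2 fold change of the 7 genes with all 6 libraries (diamond) and with each library left out (circles for KO_HFD, squares for WT_HFD), filled where the adjusted p was under 0.05. S100a11 stays between 1.81 and 2.42 and is filled with all libraries and without KO_HFD replicate 2, while S100a6 falls to 1.03 without KO_HFD replicate 3.

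Levels between the 7 were compared per kilobase of the longest protein-coding transcript in GENCODE vM21. In the livers labelled KO, S100a10 stood first at 127 ± 22.4 CPM per kilobase (SD, n = 3), followed by S100a11 at 70.6 ± 29.2, S100a1 at 58.5 ± 9.18, S100a16 at 16.7 ± 3.50, S100a13 at 10.9 ± 2.10, S100a6 at 4.61 ± 3.58 and S100a4 at 3.39 ± 1.40. In the livers labelled WT the order was S100a10 at 99.6 ± 41.4 CPM per kilobase, S100a1 at 70.0 ± 15.97, S100a16 at 17.1 ± 2.23, S100a11 at 16.5 ± 5.04, S100a13 at 12.0 ± 1.16, S100a6 at 1.30 ± 0.107 and S100a4 at 1.11 ± 0.561. In libraries labelled KO the ranges of S100a11 and S100a1, of S100a6 and S100a4, and, by a narrow margin at labelled KO replicate 3 of S100a6, of S100a13 and S100a6, overlapped. In those labelled WT the ranges of S100a10 and S100a1 overlapped, as did those of S100a16 and S100a11, of S100a11 and S100a13, and of S100a6 and S100a4. With the summed exon length of each gene in place of that transcript, S100a10 and S100a11 were nearly level in livers labelled KO, at 71.7 and 70.6 CPM per kilobase. In livers labelled WT, S100a1 then stood above S100a10, at 68.3 against 56.3 CPM per kilobase, and in both groups S100a4 stood above S100a6 (2.90 and 2.46 in livers labelled KO, 0.942 and 0.695 in livers labelled WT).

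The make-up of the family differed with S100a11. Of the 7 genes' summed level per kilobase, S100a11 held 28.4%, 15.5% and 27.2% in the libraries labelled KO, against 7.60%, 7.79% and 7.35% in those labelled WT. S100a1 held 18.1%, 27.1% and 16.6% in the libraries labelled KO, against 30.6%, 31.6% and 35.8% in those labelled WT. S100a10 took a similar share in both, 43.5% ± 0.941 in livers labelled KO and 44.7% ± 6.43 in livers labelled WT. Shares of one sum move together, so these are 1 description and not separate results.

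On chromosome 3, the called member lay beside a member that was not called. S100a4 and S100a6 stood about 92 and 106 kb from S100a1, with S100a8 and S100a9 beyond them, and S100a11 and S100a10 lay 3010.7 and 3047.1 kb from it. S100a11 and S100a10 are direct neighbours on the same strand, with log2 fold changes of 2.10 and 0.35. S100a1 and S100a13, whose gene bodies in the deposited table start 43 bases apart on opposite strands, were both not called. S100a13 over S100a1, per kilobase, was 0.172, 0.181 and 0.204 in the libraries labelled KO, against 0.144, 0.166 and 0.217 in those labelled WT. The groups overlapped, and shared control of these genes was not tested. No other gene of the table overlapped any of the 7. Of the 14 genes outside the family within 100 kb of one of the 7, 7 were tested. EdgeR, DESeq2 and limma voom each called 0 of those 7, and 0 had an unadjusted p under 0.05. Their log2 fold changes ran from -0.44 to 0.29, with a median of -0.11.

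**Figure D3:**
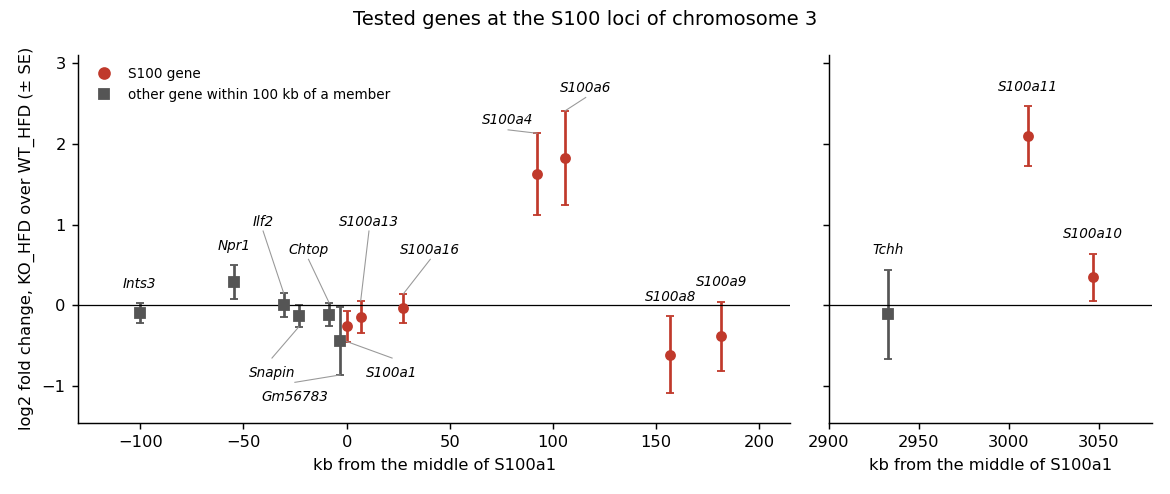
Log2 fold change (± SE) of the tested genes at the 2 S100 loci of chromosome 3 against distance from the middle of S100a1, with S100 genes as red circles and other genes within 100 kb of a member as grey squares. S100a4, S100a6 and S100a11 stand above 1.6, and S100a1, S100a13, S100a16, S100a10, S100a8, S100a9 and the grey neighbours lie between -0.61 and 0.35.

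Of the other S100 genes, 7 had a row and 3 of these were tested. EdgeR, DESeq2 and limma voom each called 0 of the 3, and 1 had an unadjusted p under 0.05. That one was S100g, calbindin-D9k of the intestine, with 30, 21 and 52 counts in the libraries labelled KO against 8, 0 and 0 in those labelled WT (adjusted p = 0.219). Neutrophil S100a8 had 0.992, 0.610 and 0.621 CPM in the libraries labelled KO against 1.77, 0.713 and 0.909 CPM in those labelled WT, and its partner S100a9 had 2.27, 1.28 and 1.02 CPM in the libraries labelled KO against 2.91, 1.44 and 1.60 CPM in those labelled WT. Both groups overlapped in both genes, and neither passed (adjusted p = 0.541 and 0.696). S100a14, an epithelial member below the filter, had 8, 4 and 10 counts in the libraries labelled KO and 0 in all 3 labelled WT, which allows up to 0.0578 CPM at the shallowest. S100a3, S100a7a and S100b had at most 12 counts in any library.

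Among 19 genes whose products bind S100 proteins, are released with them or receive them, 1 was called higher, 0 lower and 18 were not called, with 6 higher and 1 lower at an unadjusted p under 0.05. Over all tested genes 0.932% were called higher and 12% were higher at an unadjusted p under 0.05. In either direction, DESeq2 called 10.6% of all the genes it tested and limma voom 0.392%. The median log2 fold change of the 19 was 0.21. Annexin partners held the called gene: of these 5, edgeR called 1, DESeq2 3 and limma voom 0, and 3 had an unadjusted p under 0.05. Anxa1, which binds S100A11, had 13.3, 9.51 and 25.0 CPM in the libraries labelled KO against 3.93, 3.15 and 2.13 CPM in those labelled WT, a 5.20-fold rise (log2 fold change 2.38 ± 0.39, adjusted p = 0.046). Like S100a11, it kept its call without labelled KO replicate 2 and lost it without any other single library. Over all genes, calls fell from 253 to 11 and 33 without labelled KO replicate 1 or 3. They fell to 0 and 4 without labelled WT replicate 2 or 3, and rose to 382 without labelled WT replicate 1. S100a11 over Anxa1, per kilobase, was 9.73, 6.81 and 6.41 in the libraries labelled KO and 9.33, 8.38 and 9.35 in those labelled WT. The groups overlapped, with labelled KO replicates 2 and 3 below every library labelled WT. Both genes were called higher in lists chosen with earlier results known, so this ratio is no separate result.

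The ratio of S100a10 to its partner Anxa2 had groups that did not overlap, and no test was made of it. Anxa2, annexin A2, had 86.3, 48.2 and 136 CPM in the libraries labelled KO against 32.8, 11.1 and 9.95 CPM in those labelled WT. Every labelled KO library lay above every labelled WT library, as in 13.7% of all tested genes. The log2 fold change of 2.33 ± 0.60 did not pass in edgeR's test (adjusted p = 0.105). Anxa2 was called without labelled WT replicate 1, where 1.48% of all tested genes were called higher. S100a10 over Anxa2, per kilobase, was 1.95, 3.35 and 1.62 in the libraries labelled KO against 6.32, 12.4 and 8.81 in those labelled WT, with no overlap. Both groups thus had more S100a10 than Anxa2 RNA per kilobase, by a smaller factor in the livers labelled KO. The groups overlapped in S100a10 and not in Anxa2, which was chosen after its values were seen, so this ratio is no separate result. Ahnak, the scaffold that joins the S100A10 and annexin A2 complex, differed by 1.45 ± 0.32 on the log2 scale and did not pass in edgeR's test (adjusted p = 0.0627). DESeq2 called both Anxa2 and Ahnak, and edgeR called Ahnak with total counts or without labelled KO replicate 2. Anxa6 and Anxa11 were at 0.21 and 0.04 (adjusted p = 0.411 and 0.945).

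Of 4 cytoskeletal partners edgeR called 0, with 2 at an unadjusted p under 0.05, while DESeq2 called 1 and limma voom 0. The capping protein subunit Capza2 and the liprin Ppfibp1 had log2 fold changes of 0.36 ± 0.11 and 0.40 ± 0.17 (adjusted p = 0.13 and 0.225), and Myh9, the myosin bound by S100A4, was at 0.13 (adjusted p = 0.836). Of 3 ubiquitin and p53 partners edgeR, DESeq2 and limma voom each called 0, and 0 had an unadjusted p under 0.05, with Trp53 at 0.24 and Sugt1, a co-chaperone bound by S100A6, at 0.21 (adjusted p = 0.278 and 0.55). Among 7 genes of release cargo, receptors and plasmin formation, edgeR called 0, with 2 at an unadjusted p under 0.05, DESeq2 2 and limma voom 0. Closest was Plat, tissue plasminogen activator, with 3.62, 1.28 and 7.08 CPM in the libraries labelled KO against 0.366, 0.713 and 0.512 CPM in those labelled WT (log2 fold change 2.91 ± 0.62, adjusted p = 0.0575). Plg, the plasminogen that S100A10 binds, had 1595, 1715 and 1219 CPM in the libraries labelled KO against 2542, 2972 and 3230 CPM in those labelled WT (-0.95 ± 0.22, adjusted p = 0.0677). The S100A13 cargoes Fgf1 and Il1a were at -0.13 and 0.02 (adjusted p = 0.884 and 0.985), and Ager, the RAGE receptor, had at most 74 counts in any library.

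**Figure D4:**
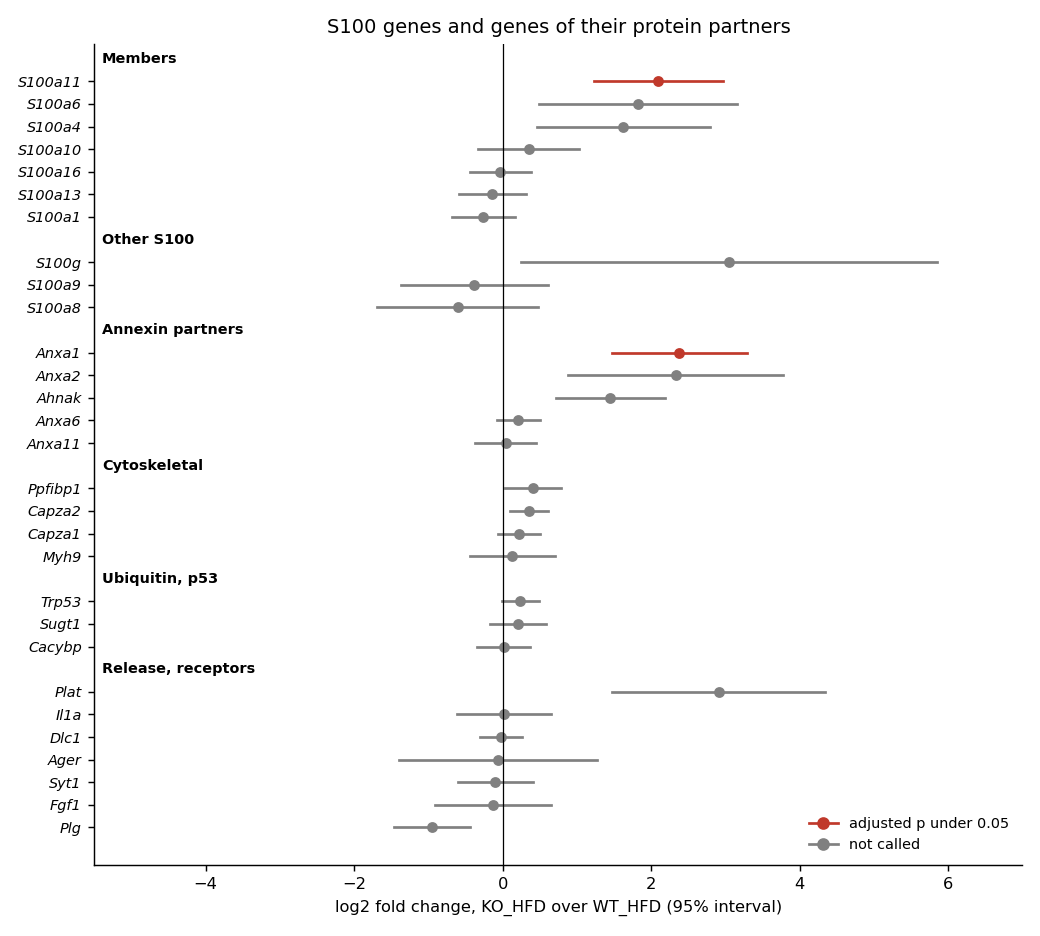
Log2 fold change, KO_HFD over WT_HFD, with 95% intervals for the tested S100 genes and partner genes, in red where the adjusted p was under 0.05 in edgeR's test. S100a11 and Anxa1 are the 2 red points, at 2.10 and 2.38.

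Summed markers of stellate cells and fibroblasts, and of recruited macrophages, were higher in every library labelled KO than in any labelled WT, as S100a11, S100a4 and S100a6 were. The same held for 13.7% of all tested genes, so this shared pattern does not tie the S100 genes to these cells. In whole liver more cells of a type and more RNA per cell cannot be told apart. Of 67 tested markers of all cell types, edgeR called 5 higher, and 29 had an unadjusted p under 0.05 in either direction, against 0.932% and 19.7% of all tested genes. The DESeq2 and limma voom counts of each marker list stand beside 10.6% and 0.392% of all genes called by those tools in either direction. The summed level of 10 stellate cell and fibroblast markers was 937, 548 and 797 CPM in the libraries labelled KO against 252, 270 and 278 CPM in those labelled WT. Of the 10, edgeR called 3 matrix genes higher, Dcn, Col14a1 and Lum, while DESeq2 called 9 and limma voom 2, and 10 had an unadjusted p under 0.05. The 10 recruited macrophage markers summed to 552, 458 and 875 CPM in the libraries labelled KO against 260, 144 and 145 CPM in those labelled WT. Most of that sum came from Lyz2 (54.7%). EdgeR called 1 higher, the lysosomal gene Cd68, while DESeq2 called 10 and limma voom 1, and 10 had an unadjusted p under 0.05. Whether recruited or resident macrophages gave these reads was not tested. In both lists, and in S100a11, S100a4, S100a6, Anxa1 and Anxa2, labelled KO replicate 2 was the lowest of its group. The part of these cells in the S100 values was not tested.

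Bile duct markers varied widely among the libraries labelled KO. The 10 summed to 272, 101 and 670 CPM in the libraries labelled KO against 125, 120 and 101 CPM in those labelled WT, with overlapping groups and most of the sum from Spp1 (83.3%), a gene that macrophages also carry. Of the 8 tested, edgeR called 1 higher, the keratin Krt23, while DESeq2 called 3 and limma voom 1, and 4 had an unadjusted p under 0.05. Krt23 had 7.70, 9.75 and 12.3 CPM in the libraries labelled KO against 0.886, 0.713 and 0.281 CPM in those labelled WT, and labelled KO replicate 2 was not the lowest of its group. Epcam and Krt19, which define duct cells in liver and were chosen after their values were seen, had another order. Epcam had 4.69, 0.936 and 18.4 CPM in the libraries labelled KO against 0.539, 1.11 and 0.694 CPM in those labelled WT, and Krt19 had 2.45, 0.581 and 10.9 CPM in the libraries labelled KO against 0.482, 0.826 and 0 CPM in those labelled WT. Within the group labelled KO, S100a6 had the order of Epcam and Krt19, with replicate 2 lowest and replicate 3 highest, and not that of Krt23. Whether duct cells gave the S100a6 reads was not tested.

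In the other cell type lists the summed levels of the groups overlapped. The 10 neutrophil markers, S100a8 and S100a9 included, summed to 9.09 to 13.3 CPM in the libraries labelled KO and 8.24 to 11.8 CPM in those labelled WT. Ly6g, not tested, had 0 counts in all 3 labelled KO and 0, 3 and 8 in those labelled WT. EdgeR, DESeq2 and limma voom each called 0 of the 8 tested. In edgeR's test 1 had an unadjusted p under 0.05, Csf3r, which was higher (log2 fold change 0.63) and gave 54.1% of the sum. The median log2 fold change of the list was -0.5. The 7 endothelial markers summed to 81.1 to 153 CPM in the libraries labelled KO and 99.3 to 138 CPM in those labelled WT. EdgeR called 0 of these, DESeq2 1 and limma voom 0, and 2 had an unadjusted p under 0.05. The 6 Kupffer cell markers summed to 168 to 446 CPM in the libraries labelled KO and 302 to 560 CPM in those labelled WT. EdgeR, DESeq2 and limma voom each called 0 of these, with 0 at an unadjusted p under 0.05. Cd5l gave 56.5% of that sum and had a log2 fold change of 0.16, while the median of the 6 was -0.66. Clec4f and Marco were lower in every library labelled KO than in any labelled WT, as were 12% of all tested genes. The 8 T and NK cell markers summed to 4.79 to 12.1 CPM in the libraries labelled KO and 5.65 to 6.38 CPM in those labelled WT. EdgeR called 0 of these, DESeq2 2 and limma voom 0, and 2 had an unadjusted p under 0.05. Those 2 went in opposite directions, Cd4 lower (log2 fold change -1.87) and Cd8a higher (2.09). Of the 10 hepatocyte markers all 3 tools called 0, 0 had an unadjusted p under 0.05, and the median log2 fold change was -0.31. Alb gave 60.1% of their sum and had a log2 fold change of 0.37, so the sum does not follow that median.

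**Figure D5:**
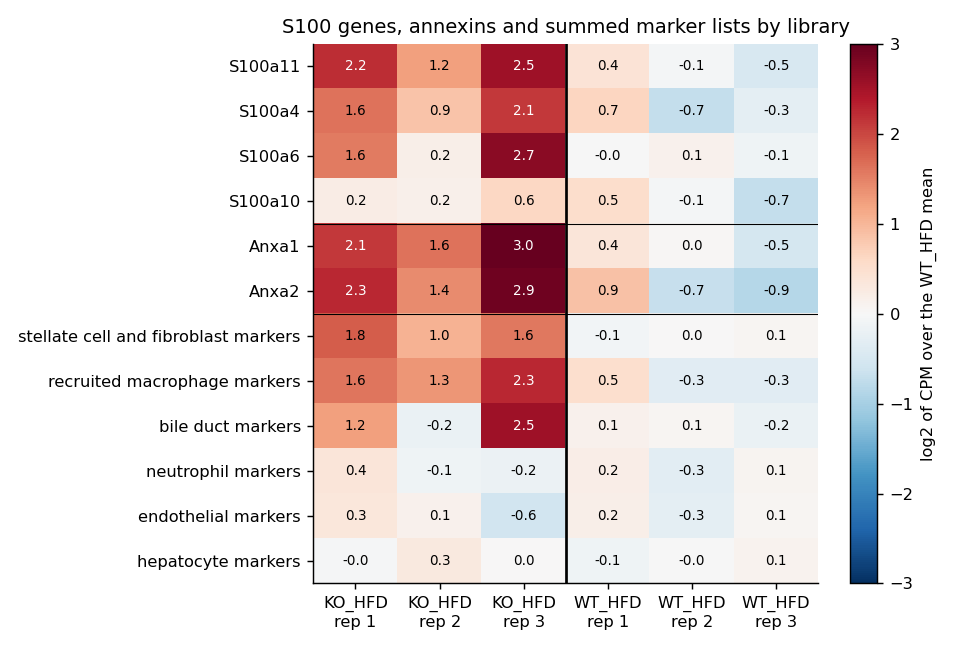
Log2 of CPM over the WT_HFD mean in each library for 4 S100 genes, 2 annexins and the summed levels of 6 marker lists. KO_HFD replicate 2 is the palest of its group in S100a11 (1.23), S100a6 (0.18) and the bile duct markers (-0.19), while the neutrophil, endothelial and hepatocyte lists stay between -0.58 and 0.37 in all 6 libraries.

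Within the family, the smallest distances over the 6 libraries were among S100a1, S100a13 and S100a16. As the measure of likeness, log2 CPM was centred on each gene's own mean and the root-mean-square difference taken over the 6 libraries. S100a13 and S100a16 were 0.13 log2 units apart, and S100a1 and S100a13 0.19. S100a4 and S100a11 were 0.36 apart and S100a6 and S100a11 0.51, against 1.25 between S100a1 and S100a11. Distance and rank gave different orders: 90 genes outside the family lay nearer to S100a11 than S100a4 did, while 304 lay nearer to S100a13 than S100a16 did and 1389 nearer to S100a1 than S100a13 did. Among 13382 genes outside the family with a mean of at least 1 CPM, the nearest to S100a11 were the protocadherin Pcdh7 (0.12) and the linker protein Clip3 (0.13). Nearest to S100a4 were Ccdc88a (0.11), which codes for girdin, and Prkar2b (0.13), a subunit of protein kinase A. Nearest to S100a6 were Ahnak2 (0.08), a relative of Ahnak, and the glutathione peroxidase Gpx3 (0.18). S100a10 lay nearest to Enoph1 (0.06) and Gm11353 (0.11), S100a1 to Anapc13 (0.04) and Rnasek (0.05), S100a13 to Cox16 (0.04) and Gm5417 (0.05), and S100a16 to the ribosomal protein genes Fau and Rps27a (0.05 each). With 6 libraries in 2 groups, many genes share such a profile, and these distances are a description.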

How the data were processed

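Liver RNA was taken up in Trizol, per the labels' protocols, then selected with oligo(dT) beads, and made into libraries with dUTP in the second strand, which marks strand. The authors deposited unnormalized counts, whole numbers with 1 column per library. Per the submitters' processing notes, the build was GRCm39 and edgeR was used. The aligner, counting program, annotation and strand setting are not stated in these sources. Reads of near-identical or antisense genes could have been split.

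Columns were matched to samples by title. Each pair of libraries within a group differed by more than counting noise (a chi-square of 63 or more per gene). Counts were filtered with filterByExpr, scaled by TMM and tested with edgeR 4.0.16 (quasi-likelihood, robust; R 4.3.3), with Benjamini-Hochberg adjustment over 17606 genes. The SE came from the F statistic. Alternatives used DESeq2 1.42.0, limma 3.58.1 (voom), other scalings, filters, a replicate block and each library left out. The scripts were tested on simulated counts. Counts of amplified reads are not independent molecules, so floors cover counting error only. Lengths came from GENCODE vM21 by gene identifier and served only for levels per kilobase.

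The 7 genes and all lists were chosen with earlier results of these data known. Named were the 7 genes, each called gene of a list or, in the S100 and partner lists without one, up to 2 with the smallest p, and the 2 nearest profiles of each of the 7. Marker lists with no call are given by their sums. Other genes named, such as Anxa2, Ahnak, Myh9, S100a9, Epcam, Krt19, Clec4f, Marco, Csf3r, Cd4 and Cd8a, were chosen after their values were seen.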

Additional observations from a re-analysis of the deposited data

How the results depend on the processing

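S100a11 had a positive log2 fold change in all 13 alternative fits, from 1.81 to 2.47, but was called in 3 of them (total counts, DESeq2 and without labelled KO replicate 2). With all 6 libraries, edgeR called 253 genes in all, 1 of the 7 S100 genes, 1 partner gene and 5 cell type markers. With DESeq2 size factors, with no filter, with a filter of 10 counts in 3 libraries, with limma voom and with the replicate block, 0 of the 7 were called, with S100a11 at an adjusted p of 0.0506, 0.0547, 0.0501, 0.0636 and 0.0748. DESeq2 called 3. Genes called in all were 1008 with total counts (93.4% of them higher, against 64.8% with TMM), 473 with no filter, 1867 with DESeq2, 69 with voom and 4 with the replicate block. Partner genes called were 4 with total counts, 2 with no filter, 6 with DESeq2, 0 with voom and 0 with the block. Cell type markers called were 14, 25 and 0 with total counts, DESeq2 and the block. With 1 library left out, genes called ran from 0 to 912, S100 members from 0 to 2, partner genes from 0 to 4 and cell type markers from 0 to 19. Each highest count came without labelled KO replicate 2; without labelled WT replicate 2 all 4 counts were 0 in edgeR's test (2424 genes had an unadjusted p under 0.05, and DESeq2 was not run on that subset). Other S100 genes and chromosome neighbours had 0 calls under every alternative, windows of 50 and 500 kb included.

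Leaving out 1 library, S100a13 ran from -0.22 to 0.01 and S100a16 from -0.20 to 0.10. Among the 7 genes, signs turned for 3: with total counts S100a1 was at 0.06, S100a13 at 0.19 and S100a16 at 0.31; without labelled KO replicate 1 S100a13 was at 0.01 and S100a16 at 0.10. S100a16 was at 0.01 without labelled KO replicate 2 and 0.07 without labelled WT replicate 1. The shift under total counts is that of all genes; the cause of the others was not tested. The labels do not say that replicate numbers pair the samples. Deviations of same-numbered libraries correlated at -0.004, -0.02 and -0.046, and the block took the calls from 253 to 4. With 3 libraries per group, neither result can tell whether the numbers mark a pairing. Depth limits S100a4 most, at 18 to 211 counts per library.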
